A study of Homo sapiens with 48 samples.

Results

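The clustered protocadherins are cell-surface adhesion proteins of the cadherin superfamily, encoded by 3 neighbouring gene clusters on human chromosome 5. All 53 genes named PCDHA, PCDHB or PCDHG in the gene count table were taken, 15 alpha, 16 beta and 22 gamma genes of 35535 genes in all, and each had a count in at least 1 library. Expression was measured by RNA sequencing in 8 cell lines derived from human bladder cancers: TCCSUP, SW780, T24, 639V, HT1376, KU1919, HT1197 and VMCUB. Each line was treated with CPI-0209, an inhibitor of the histone methyltransferase EZH2, at 250 nM for 4 days, or with the vehicle DMSO. There were 3 CPI-0209 and 3 DMSO libraries a line, 48 libraries in 16 groups, grown in media that differed between lines. The labels do not state that the 3 libraries of a group came from separate cultures. The p-values therefore describe the spread among libraries, part or all of which may be technical. In bulk RNA, fewer cells that express a gene and less RNA per cell cannot be told apart.

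In the vertebrate nervous system each alpha and gamma gene has its own promoter and large first exon, which is spliced to small 3' exons shared by its whole cluster, whereas beta genes are single exons with no shared part. A neuron switches on a few of the variable promoters, largely at random and through CTCF and cohesin, and most neurons also use the C-type genes at the cluster ends. The proteins bind copies of themselves on neighbouring cells, which lets a neuron tell its own branches from those of others, and promoter methylation silences these clusters in several cancers. EZH2 is the catalytic subunit of PRC2, the complex that places the repressive methyl mark on lysine 27 of histone H3.

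The alpha genes spanned chromosome 5 positions 140786136 to 141012347, the beta genes 141051135 to 141249365 and the gamma genes 141330571 to 141512981, all on the plus strand (GRCh38, GENCODE 29). Alpha genes shared 19.2% to 56.6% of their exon bases with another member and gamma genes 27.6% to 64.4%, while beta genes shared 0%. How reads from those shared exons were divided is not known, so values of single alpha and gamma genes are less certain than those of beta genes. Another annotated gene overlapped 22 of the 53 members, 6 of them on the same strand, and the strand setting of the counting is not known, so reads of such partners cannot be told apart from theirs.

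The promoters are shown because the beta genes moved together in several lines. RefSeq windows (GRCh38.p14, 250 bases before to 50 after each start) were found for 47 members, and not for PCDHA3, PCDHA13, PCDHB6, PCDHB11, PCDHGA12 and PCDHGC5. The short strings searched were chosen as frequent in these windows, and both strands were read. GGTGGCGCTG, the run of 10 bases found in the most beta windows, stood in 12 of 14 beta windows, in 0 of 13 alpha and 0 of 20 gamma windows, and in 0.276% of 35116 human promoters. In those 12 its first base lay between positions -84 and -2 relative to the start. PCDHB1 and PCDHB14 had near matches with 1 substitution each, C6T in PCDHB1 and G10A in PCDHB14, counted from the 5' end of the string. GATGTCGCT stood in 9 of 13 alpha windows and in 0.105% of all. GCCGCTGT stood in 11 of 20 gamma windows and in 1.63% of all. TCGCTGT, which can overlap GATGTCGCT by its first 5 letters, stood in 6 alpha and 6 gamma windows and in 2.12% of all, and 17 of the 20 gamma windows held it or GCCGCTGT. The CGCT inside all of these is known as the core of a conserved element of these promoters where CTCF binds, but 70% of all promoters hold those letters. A match describes letters and is not a site, and nothing about a factor is drawn from it. The stretches below run 5' to 3' on the plus strand, with the string in capitals (for PCDHB1, its near match). They are from beta genes with large or frequent changes, from PCDHB1 as the beta gene called in no line, and from alpha and gamma genes described below.
PCDHB2, chr5:141094520-141094574: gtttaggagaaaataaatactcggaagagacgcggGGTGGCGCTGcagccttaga
PCDHB5, chr5:141135155-141135209: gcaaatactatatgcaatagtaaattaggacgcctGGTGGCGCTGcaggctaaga
PCDHB7, chr5:141172542-141172596: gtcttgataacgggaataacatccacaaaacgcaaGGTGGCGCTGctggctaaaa
PCDHB8, chr5:141177753-141177807: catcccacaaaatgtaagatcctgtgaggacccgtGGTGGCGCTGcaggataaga
PCDHB13, chr5:141213841-141213895: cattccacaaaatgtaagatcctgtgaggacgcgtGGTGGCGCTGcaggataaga
PCDHB1, chr5:141051313-141051367: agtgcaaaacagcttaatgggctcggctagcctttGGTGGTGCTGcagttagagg
PCDHA1, chr5:140786062-140786115: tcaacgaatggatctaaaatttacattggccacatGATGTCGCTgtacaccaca
PCDHA10, chr5:140855817-140855870: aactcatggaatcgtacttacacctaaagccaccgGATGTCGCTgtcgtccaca
PCDHGA1, chr5:141330382-141330434: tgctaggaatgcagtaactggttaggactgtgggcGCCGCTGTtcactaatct
PCDHGB5, chr5:141397842-141397894: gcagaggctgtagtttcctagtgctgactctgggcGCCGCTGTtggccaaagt
PCDHGC3, chr5:141475859-141475911: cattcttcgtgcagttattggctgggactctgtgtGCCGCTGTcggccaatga

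Library totals ranged from 26481418 to 50916911 counts, with a median of 41665645, and the 53 genes took 0.00393% to 0.0729% of them, so many members rested on few reads. Levels are CPM, the count scaled to library size after TMM normalization over all libraries. Calls come from edgeR's quasi-likelihood test within each line over all genes that passed its filter on low counts, with a Benjamini-Hochberg adjusted p under 0.05. Of 424 pairs of a member and a line, 274 passed the filter and 90 were called, 2 members (PCDHA8 and PCDHA13) passed in no line and 13 passed in all. The filter asks for enough counts in 3 libraries of a line, so a gene low in DMSO can pass through its CPI-0209 libraries alone. For such genes, higher calls in all lines tested follow partly from the filter. EZH2 RNA itself averaged 109.9 ± 2.83 CPM in CPI-0209 and 101.1 ± 2.89 CPM in DMSO libraries of TCCSUP (SD, n = 3 each), a call of 0.16 ± 0.05 on the log2 scale (SE, adjusted p = 0.0173, edgeR). EZH2 was also called higher in HT1376 (0.15 ± 0.05, adjusted p = 0.0377) and in no other line, and the fit shared by lines gave 0.03 ± 0.03 (adjusted p = 0.513). All 8 epithelial markers of the list used had counts in each line, and their summed level was lowest in 639V and TCCSUP.

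The response of the family differed widely between lines. TCCSUP and SW780 had most of the genes called higher after CPI-0209, and T24 had changes in beta genes. 639V had more members called lower than higher, with most not called, and the other 4 lines had few calls. In TCCSUP 30 members were called higher and 1 lower of 50 tested, where 25.7% of all tested genes were called higher and 23% lower. In SW780 25 members were called higher and 0 lower of 48 tested, against 30.8% higher and 30.3% lower over all genes. In T24 7 members were called higher and 0 lower of 33 tested, against 9.37% and 0.93%. In 639V 2 members were called higher and 10 lower of 42 tested, against 22.1% and 17.1%. Leaving out DMSO replicate 3 of 639V left 5 lower calls. Leaving out CPI-0209 replicate 1 of T24 left 4 higher calls.

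In VMCUB 5 members were called higher and 0 lower of 29 tested, against 16.4% and 11% over all genes. In HT1376 3 were called higher and 1 lower of 23 tested, against 23.7% and 16%. In KU1919 3 were called higher and 1 lower of 25 tested, against 9.3% and 2.4%. In HT1197 2 were called higher and 0 lower of 24 tested, against 11.8% and 7.8%. In these 4 lines the share of members called in either direction was thus close to or below that of all genes. At an unadjusted p under 0.05, edgeR counted 4 higher and 4 lower members in HT1376 and 4 higher and 5 lower in KU1919. It counted 0 lower in HT1197, VMCUB and SW780 and 2 lower in T24. DESeq2 called 1 lower in HT1376, 3 lower in KU1919 and 0 lower in HT1197, VMCUB, SW780 and T24. The shares of all genes at these settings are not given here. The small numbers of edgeR calls in VMCUB, HT1376, KU1919 and HT1197 moved with single libraries. In VMCUB there were between 0 and 8 higher, with 0 when DMSO replicate 1 or CPI-0209 replicate 2 was left out and 8 without DMSO replicate 3. In KU1919 there were between 0, without DMSO replicate 2, and 9, without CPI-0209 replicate 1. In HT1197 there were between 0, without DMSO replicate 2 or 3 or CPI-0209 replicate 2, and 3, without DMSO replicate 1.

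**Figure D1:**
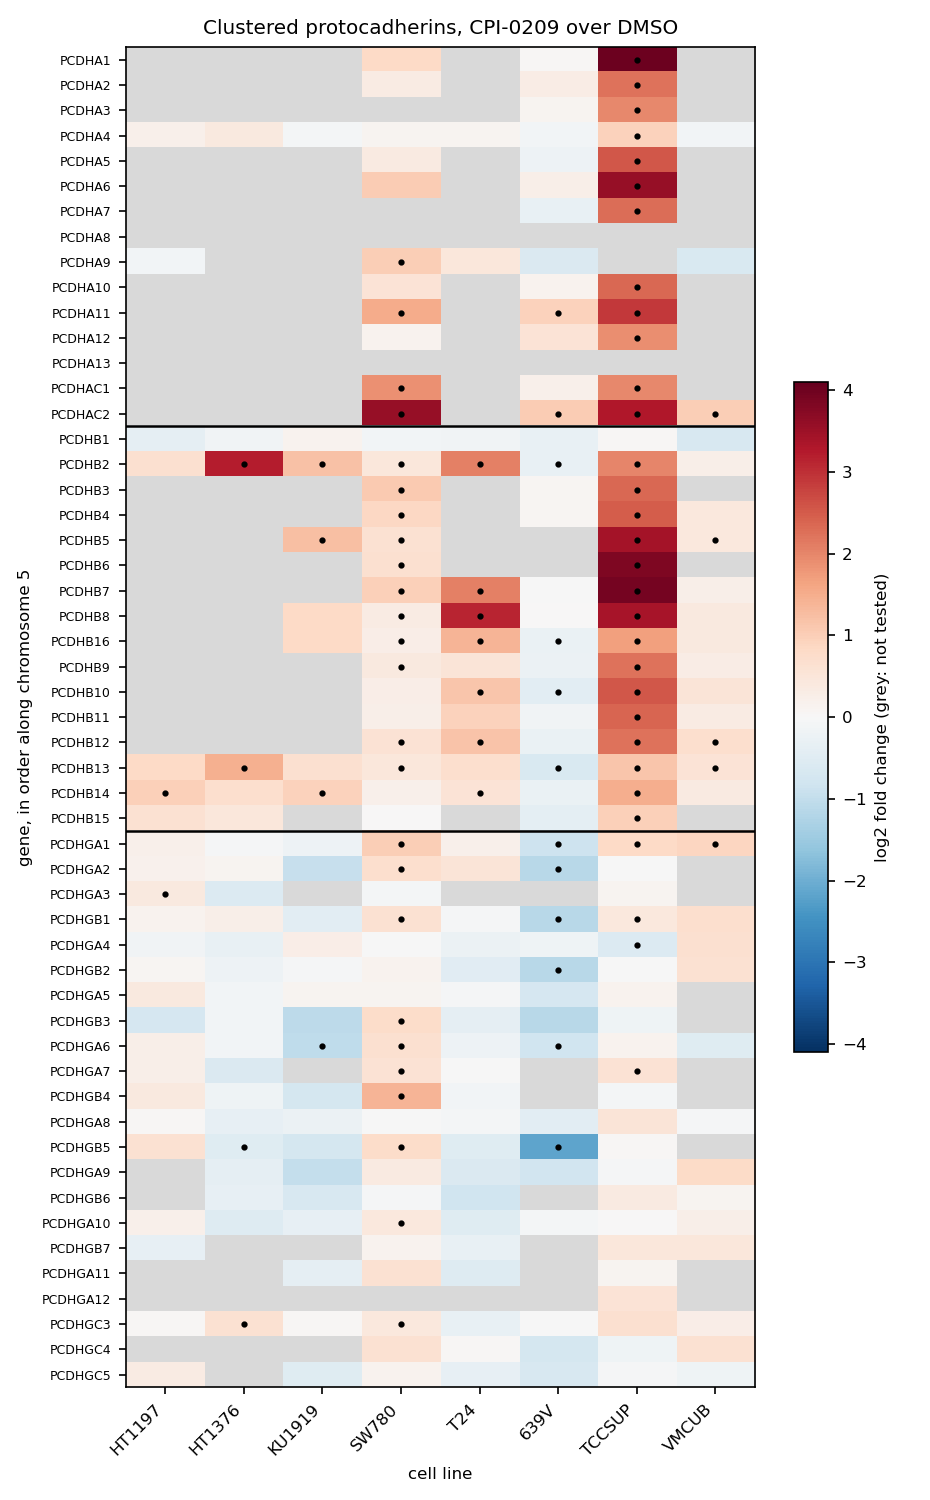
Log2 fold change of CPI-0209 over DMSO (colour, fitted by edgeR) for the 53 genes in order along chromosome 5 (rows) in the 8 lines (columns), with black lines between the alpha, beta and gamma clusters. Dots mark adjusted p under 0.05 and grey marks genes that did not pass the filter; 30 genes rose in TCCSUP, 25 in SW780 and 7, all beta, in T24, and 10 fell in 639V.

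Summed over each cluster, TCCSUP had the largest difference. Its beta sum was 436.8, 444.2 and 409.5 CPM in the CPI-0209 libraries, against 104.4, 111.2 and 107.0 CPM in the DMSO libraries, a ratio of 4.00. Its alpha sum was 25.5, 26.3 and 22.1 CPM in CPI-0209, against 5.68, 6.35 and 6.27 CPM in DMSO, a ratio of 4.04. Its gamma sum was 243.3, 244.7 and 232.1 CPM in CPI-0209, against 222.1, 242.8 and 238.4 CPM in DMSO. The alpha and beta groups were thus far apart in TCCSUP, while the gamma groups overlapped.

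In SW780 the 3 sums were higher in each CPI-0209 library than in each DMSO library, with ratios of 1.60 for alpha, 1.40 for beta and 1.37 for gamma. In T24 the beta sum was 23.7, 22.1 and 23.6 CPM in CPI-0209, against 12.5, 12.6 and 11.6 CPM in DMSO, a ratio of 1.90, whereas its gamma groups overlapped. The beta sum was also higher without overlap in HT1376 (ratio 2.07), KU1919 (1.79), HT1197 (1.40) and VMCUB (1.2). In 639V it was lower without overlap, at 35.2, 33.1 and 31.3 CPM in CPI-0209 and 39.0, 39.0 and 41.4 CPM in DMSO, a ratio of 0.835. The gamma sum of 639V was 41.7, 42.0 and 43.3 CPM in CPI-0209 and 46.2, 45.9 and 49.5 CPM in DMSO, a ratio of 0.897. Its alpha sum was higher without overlap, at 15.7, 14.6 and 15.4 CPM in CPI-0209 and 13.1, 14.1 and 13.1 CPM in DMSO, a ratio of 1.13. The gamma sum of KU1919 was lower without overlap, at 46.8, 59.7 and 64.8 CPM in CPI-0209 and 66.9, 69.3 and 69.4 CPM in DMSO, a ratio of 0.833. No test was run on the sums. The beta sum therefore stood above DMSO in 7 lines and below it in 639V.

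**Figure D2:**
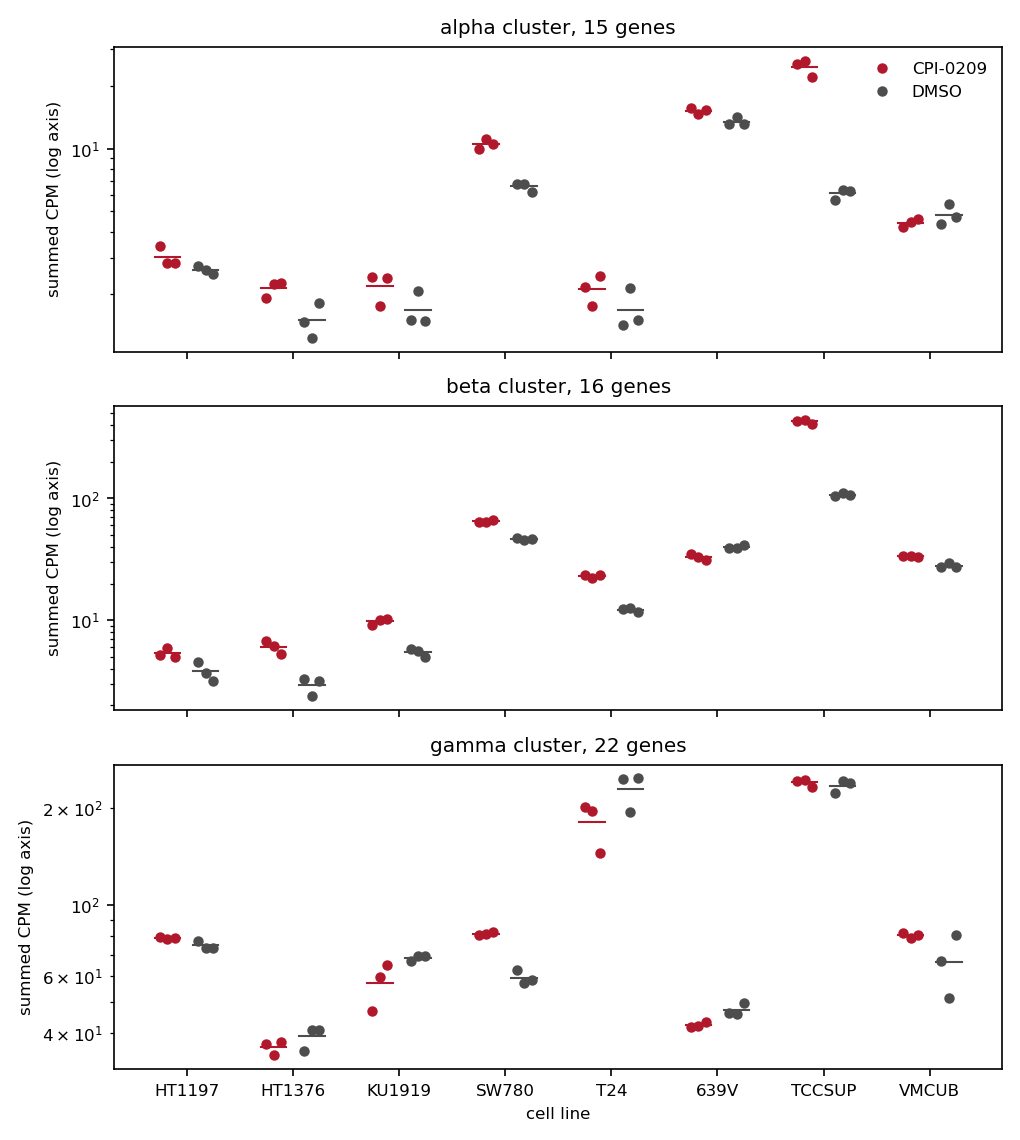
Summed CPM of the alpha, beta and gamma genes (log axes) in each library of the 8 lines, CPI-0209 in red left of DMSO in grey, with bars at the group means (n = 3). The beta sum of TCCSUP averaged 430.2 CPM with CPI-0209 and 107.5 CPM with DMSO, the widest gap in the plot, and in 639V the CPI-0209 libraries lay below the DMSO libraries in the beta and gamma panels.

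Among the beta genes, whose proteins lack the intracellular part shared within the alpha and gamma groups, 15 of 16 rose in TCCSUP and 11 of 16 in SW780. Their median log2 change was 2.29 in TCCSUP and 0.43 in SW780, against -0.0031 and 0.02 over all tested genes. PCDHB8 had 80.0, 83.1 and 76.1 CPM in CPI-0209 libraries of TCCSUP, against 7.57, 8.24 and 7.93 CPM in DMSO libraries. Its log2 change of 3.37 ± 0.07 (SE) had an adjusted p of 1.22e-12 by edgeR. PCDHB7 had 36.2, 37.1 and 36.2 CPM in CPI-0209, against 2.7, 2.03 and 2.61 CPM in DMSO, a log2 change of 3.93 ± 0.09 (adjusted p = 6.1e-12, edgeR). The changes in this line were graded, and PCDHB13 and PCDHB15 rose by 1.12 ± 0.12 and 0.99 ± 0.06 on the log2 scale. PCDHB1, the beta gene nearest the alpha cluster, was at 1.87, 2.30 and 2.38 CPM in CPI-0209 and 2.22, 2.18 and 2.00 CPM in DMSO, and its groups overlapped (adjusted p = 0.776, edgeR).

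PCDHB1 was tested in all 8 lines and called in none, with log2 changes between -0.66 and 0.13. Its groups overlapped in every line. Per kilobase of exon it was at 0.266 CPM in CPI-0209 and 0.260 CPM in DMSO in TCCSUP, against 19.5 and 5.00 CPM for PCDHB2 in the same groups.

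**Figure D3:**
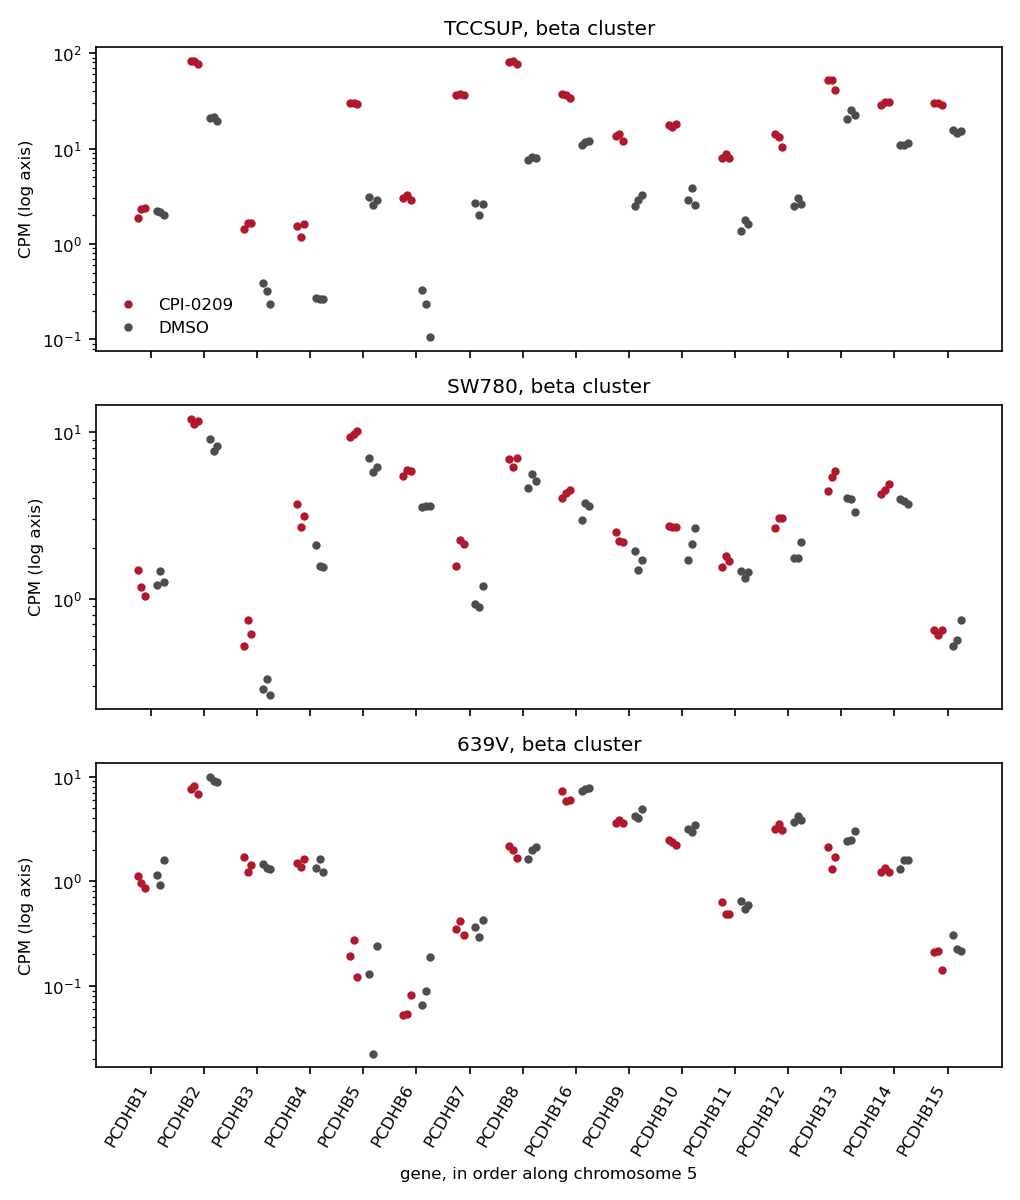
CPM (log axes) of the 16 beta genes in order along the chromosome in each library of TCCSUP, SW780 and 639V, CPI-0209 in red left of DMSO in grey. In TCCSUP the groups are apart for 15 genes and overlap for PCDHB1, in SW780 the differences are smaller, and in 639V PCDHB2 and 3 more genes fell.

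PCDHB2 was the member called in the most lines, higher in HT1376, KU1919, SW780, T24 and TCCSUP and lower in 639V. In HT1376 it had 1.79, 1.92 and 1.52 CPM in CPI-0209, against 0.201, 0.225 and 0.137 CPM in DMSO, a log2 change of 3.21 ± 0.25 (adjusted p = 8.29e-06, edgeR). In T24 it had 2.58, 1.88 and 1.80 CPM in CPI-0209, against 0.687, 0.485 and 0.294 CPM in DMSO. In KU1919 it had 1.29, 1.28 and 1.74 CPM in CPI-0209, against 0.721, 0.666 and 0.462 CPM in DMSO. The groups did not overlap in any of these lines. In KU1919, however, the call was lost (adjusted p of 0.0526 to 0.0691) in 5 of the 6 fits that left out 1 library, all but the one without CPI-0209 replicate 1. In TCCSUP it had 82.0, 82.6 and 77.1 CPM in CPI-0209, against 21.0, 21.2 and 19.6 CPM in DMSO, a log2 change of 2.00 ± 0.06. In SW780 it had 11.9, 11.2 and 11.7 CPM in CPI-0209, against 9.13, 7.70 and 8.27 CPM in DMSO, a smaller log2 change of 0.45 ± 0.08.

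In 639V PCDHB2 had 7.62, 8.07 and 6.84 CPM in CPI-0209, against 9.83, 9.12 and 8.93 CPM in DMSO, a log2 change of -0.31 ± 0.08 (adjusted p = 0.00508, edgeR). In HT1197 it had 0.944, 0.893 and 0.928 CPM in CPI-0209 and 0.683, 0.552 and 0.554 CPM in DMSO, and the test was not passed (adjusted p = 0.0619). In VMCUB it had 10.1, 10.0 and 10.4 CPM in CPI-0209 and 8.67, 9.25 and 9.11 CPM in DMSO (adjusted p = 0.0504). The groups were apart in both lines without a call.

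PCDHB5 passed the filter in 4 lines and rose in all of them. In TCCSUP it had 29.9, 30.1 and 29.5 CPM in CPI-0209, against 3.09, 2.56 and 2.90 CPM in DMSO, a log2 change of 3.42 ± 0.08 (adjusted p = 7.71e-12, edgeR). In SW780 it had 9.28, 9.74 and 10.2 CPM in CPI-0209, against 6.96, 5.73 and 6.19 CPM in DMSO. In KU1919 it had 1.40, 1.85 and 1.81 CPM in CPI-0209, against 0.677, 0.644 and 0.826 CPM in DMSO, the largest called change in that line (1.25 ± 0.21). Without DMSO replicate 1 or 2 the KU1919 call was lost (adjusted p = 0.0551 and 0.0542). In VMCUB it had 3.90, 3.98 and 3.21 CPM in CPI-0209, against 2.79, 2.85 and 2.86 CPM in DMSO, a change of 0.44 ± 0.12 that lost its call (adjusted p of 0.0994 to 0.129) without DMSO replicate 1 or without CPI-0209 replicate 1 or 2.

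PCDHB13 rose in 4 lines and fell in 639V. In TCCSUP it had 51.9, 52.5 and 40.8 CPM in CPI-0209, against 20.3, 25.5 and 22.5 CPM in DMSO. In SW780 it had 4.42, 5.37 and 5.80 CPM in CPI-0209, against 4.01, 3.95 and 3.30 CPM in DMSO. In HT1376 it had 0.840, 0.426 and 0.528 CPM in CPI-0209, against 0.175, 0.169 and 0.330 CPM in DMSO. No group pair overlapped, although the HT1376 call was lost without DMSO replicate 2 (adjusted p = 0.0584) or CPI-0209 replicate 1 (0.0724). In VMCUB it had 3.75, 3.70 and 4.21 CPM in CPI-0209, against 2.89, 2.25 and 2.98 CPM in DMSO, a call lost (0.0738 to 0.117) in 4 of the 6 fits that left out 1 library. These left out DMSO replicate 1 or any CPI-0209 library. In 639V it had 2.10, 1.32 and 1.70 CPM in CPI-0209, against 2.40, 2.45 and 3.03 CPM in DMSO, a log2 change of -0.62 ± 0.18 whose adjusted p was 0.0129, and 0.0592 without DMSO replicate 3.

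PCDHB14, whose window held only a near match to the beta string, rose in HT1197, KU1919, T24 and TCCSUP. In TCCSUP it had 28.7, 31.1 and 30.4 CPM in CPI-0209, against 10.8, 10.8 and 11.5 CPM in DMSO, a log2 change of 1.48 ± 0.07 (adjusted p = 1.32e-09, edgeR). In T24 it had 4.02, 3.82 and 4.31 CPM in CPI-0209, against 2.64, 3.17 and 2.58 CPM in DMSO. In HT1197 it had 0.566, 0.709 and 0.450 CPM in CPI-0209, against 0.382, 0.261 and 0.233 CPM in DMSO, the largest called change there (0.98 ± 0.33). The groups did not overlap. The T24 call was lost in all 6 fits that left out 1 library (adjusted p of 0.0551 to 0.178), and the HT1197 call in 4 (0.103 to 0.166), those without DMSO replicate 2 or 3 or CPI-0209 replicate 1 or 2. In KU1919 it had 1.07, 0.941 and 1.07 CPM in CPI-0209, against 0.546, 0.506 and 0.561 CPM in DMSO, a call lost (0.0517 to 0.0875) without any 1 DMSO library or CPI-0209 replicate 3.

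T24 had its 7 calls in beta genes. Its DMSO libraries were unlike each other in 2 epithelial markers, with KRT5, a basal keratin, at 1.42, 2.04 and 1.29 CPM in CPI-0209 and 69.1, 21.6 and 0.882 CPM in DMSO. CDH1, which encodes E-cadherin, was at 0.966, 0.849 and 0.778 CPM in CPI-0209 and 6.96, 3.0 and 1.08 CPM in DMSO. Without DMSO replicate 1 there were 5 calls in T24, without replicate 2 there were 5 and without replicate 3 there were 6. The largest T24 change was PCDHB8, with 2.49, 2.33 and 2.33 CPM in CPI-0209, against 0.473, 0.139 and 0.196 CPM in DMSO, a log2 change of 3.11 ± 0.39 (adjusted p = 0.0028, edgeR). PCDHB7 had 0.966, 0.991 and 1.49 CPM in CPI-0209, against 0.279, 0.254 and 0.294 CPM in DMSO. PCDHB12 had 2.90, 2.33 and 2.65 CPM in CPI-0209, against 1.2, 0.994 and 1.34 CPM in DMSO. These groups lay apart, and together with PCDHB2 they kept their calls in all 6 fits that left out 1 T24 library. The 2 alpha genes tested in T24 and its 20 tested gamma genes gave 0 calls by edgeR or DESeq2, and at an unadjusted p under 0.05 edgeR counted 0 alpha genes and 2 lower gamma genes. In 639V 4 of 14 tested beta genes were lower, PCDHB2, PCDHB16, PCDHB10 and PCDHB13, against 17.1% lower over all genes. Of those 14, 0 were higher by edgeR, by DESeq2 or at an unadjusted p under 0.05. Only PCDHB2 of the 4 kept its call under every alternative run, and without DMSO replicate 3 of 639V 1 lower beta call was left.

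The variable alpha genes rose together in TCCSUP, and outside that line only PCDHA9 (in SW780) and PCDHA11 (in SW780 and 639V) were called among them. In TCCSUP 12 of 12 tested alpha genes rose, 10 variable and both C-type genes, with log2 changes of 0.94 to 4.02, and 0 of 15 were lower by edgeR, DESeq2 or at an unadjusted p under 0.05. The other 3 were too low to be tested. Of these, PCDHA9 had 0.258, 0.407 and 0.353 CPM in CPI-0209 and 0.0601, 0.0883 and 0.158 CPM in DMSO. PCDHA1, at the 5' end of the cluster, had 1.07, 1.22 and 1.03 CPM in CPI-0209, against 0, 0.0883 and 0.105 CPM in DMSO. That difference of 4.02 ± 0.44 on the log2 scale (adjusted p = 8.16e-06, edgeR) rested on 127 counts in CPI-0209 and 7 counts in DMSO libraries. PCDHA1 thus passed the filter through its CPI-0209 libraries alone, and for alpha genes this low being tested and rising were not independent. PCDHA10 had 5.05, 4.67 and 4.12 CPM in CPI-0209, against 0.871, 0.765 and 1.11 CPM in DMSO, a log2 change of 2.36 ± 0.17. PCDHA4 took the largest share of alpha counts in 7 lines under both treatments, and in TCCSUP its share was 19.3% ± 0.215 in CPI-0209 and 41.6% ± 5.31 in DMSO (SD, n = 3 each), and it rose least of the called alpha genes there (0.94 ± 0.13).

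PCDHA11 rose in SW780, 639V and TCCSUP, the 3 lines where it passed the filter. In TCCSUP it was so low in DMSO that passing rested largely on the CPI-0209 libraries. Libraries of TCCSUP had 1.40, 1.59 and 0.894 CPM in CPI-0209, against 0.120, 0.265 and 0.132 CPM in DMSO, a log2 change of 2.91 ± 0.36 (adjusted p = 2.26e-05, edgeR). In SW780 it had 0.861, 1.23 and 0.647 CPM in CPI-0209, against 0.549, 0.194 and 0.263 CPM in DMSO. In 639V it had 0.920, 1.08 and 0.484 CPM in CPI-0209, against 0.454, 0.359 and 0.483 CPM in DMSO. The 639V groups were barely apart, and the call was lost in 4 of 6 fits that left out 1 library (adjusted p of 0.0632 to 0.0952). Those fits left out DMSO or CPI-0209 replicate 1 or 2.

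The C-type genes, the 5 members at the cluster ends that neurons use most widely, did not act as a group. PCDHAC2, which in mice is needed for the spacing of serotonergic axons, rose in all 4 lines where it passed the filter. In SW780, TCCSUP and VMCUB it was so low in DMSO that passing rested largely on the CPI-0209 libraries. It stood in SW780 at 1.77, 1.60 and 1.83 CPM in CPI-0209, against 0.144, 0.0580 and 0.222 CPM in DMSO, a log2 change of 3.58 ± 0.29 (adjusted p = 3.69e-09, edgeR) and the largest called change of that line. It stood in TCCSUP at 1.05, 1.00 and 0.753 CPM in CPI-0209, against 0.0601, 0.147 and 0.0790 CPM in DMSO. In 639V it had 1.75, 1.38 and 1.51 CPM in CPI-0209, against 0.454, 0.898 and 0.939 CPM in DMSO, a change of 1.03 ± 0.24 opposite in sign to the 10 members that fell in that line. The groups were apart in all 3 lines. In VMCUB it had 0.281, 0.351 and 0.292 CPM in CPI-0209, against 0.159, 0.171 and 0.146 CPM in DMSO, a call lost whichever 1 library was left out (adjusted p of 0.0904 to 0.166). In KU1919 it had 27 counts in CPI-0209 and 1 count in DMSO libraries and was not tested, and in HT1197, HT1376 and T24 it had 2 counts or fewer a group.

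PCDHAC1 rose in SW780 and TCCSUP. TCCSUP libraries had 0.794, 0.666 and 0.518 CPM in CPI-0209, against 0.150, 0.0588 and 0.290 CPM in DMSO, a log2 change of 1.97 ± 0.42 (adjusted p = 0.0017, edgeR). SW780 libraries had 0.431, 0.354 and 0.395 CPM in CPI-0209, against 0.173, 0.0774 and 0.0809 CPM in DMSO. The groups did not overlap in either line, while in 639V they did, at 0.955, 1.16 and 1.55 CPM in CPI-0209 and 0.951, 1.32 and 0.858 CPM in DMSO.

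PCDHGC3, a broadly expressed gamma C-type gene, was per kilobase of exon the highest of the 53 genes in 7 of 8 lines with CPI-0209 and in 6 of 8 with DMSO. It reached 24.5 CPM per kilobase in CPI-0209 and 30.4 in DMSO libraries of T24. It rose in HT1376, with 9.35, 8.98 and 9.63 CPM in CPI-0209, against 5.74, 6.64 and 6.05 CPM in DMSO (log2 change 0.63 ± 0.09, adjusted p = 0.000361, edgeR). It also rose in SW780, with 46.6, 45.5 and 45.6 CPM in CPI-0209, against 34.9, 30.9 and 33.8 CPM in DMSO. In the other 6 lines its groups overlapped and it was not called. In 639V it had 35.9, 36.9 and 37.8 CPM in CPI-0209 and 36, 36.3 and 38.3 CPM in DMSO, beside variable gamma genes that fell. Its share of gamma counts there was 87.2% ± 0.893 in CPI-0209 and 78.2% ± 0.859 in DMSO (SD, n = 3 each).

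PCDHGC4, which in mice is needed for the survival of cortical interneurons, passed the filter in 5 lines and was called in none, with log2 changes of -0.71 to 0.64. It was highest in TCCSUP, at 9.38, 10.1 and 8.54 CPM in CPI-0209 and 8.29, 12.1 and 11.8 CPM in DMSO. PCDHGC5 passed in 7 lines and was called in none, with log2 changes of -0.66 to 0.33. Its groups overlapped in every line. For both genes edgeR gave no call at an adjusted p under 0.05, and the smallest adjusted p was 0.102 for PCDHGC4 and 0.26 for PCDHGC5.

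**Figure D4:**
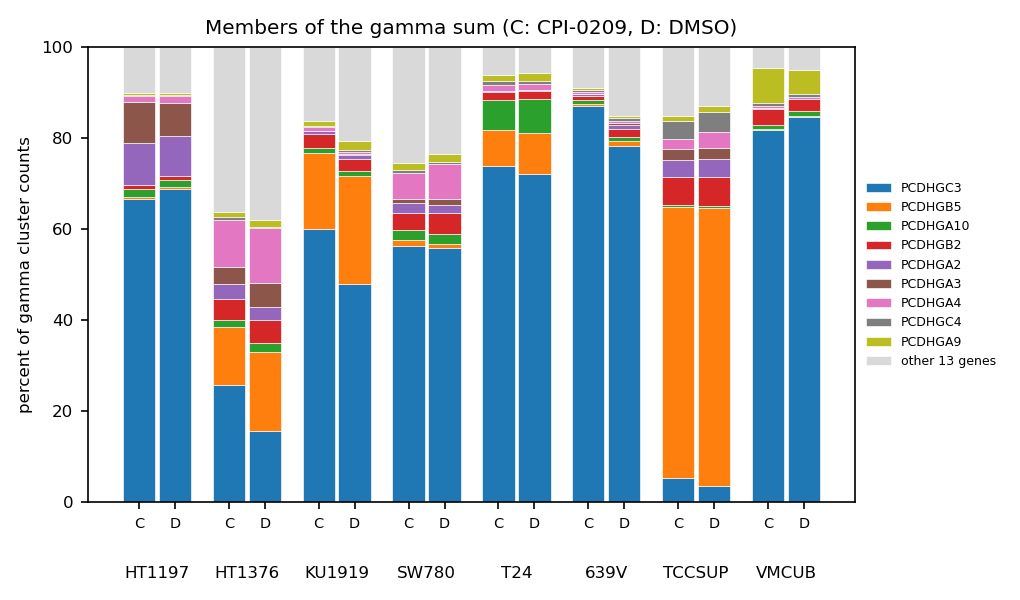
Mean share of the gamma cluster's counts (percent, not corrected for exon length, n = 3 libraries) taken by 9 gamma genes and by the other 13 together, with CPI-0209 (C) left of DMSO (D) in each line. PCDHGC3 holds the largest share except in TCCSUP, where PCDHGB5 holds 59.6% with CPI-0209 and 61.0% with DMSO, and in HT1376 with DMSO.

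The gamma genes held no direction common to the lines. In SW780 10 of 21 tested gamma genes were called higher, PCDHGC3 among them, 0 lower and 11 not called, against 30.8% higher over all genes. In 639V 6 of 15 were called lower, 0 higher and 9 not called, against 17.1% lower over all genes (0 higher also by DESeq2 and at an unadjusted p under 0.05). In TCCSUP, where the alpha and beta genes rose, 3 of 22 gamma genes were called higher and PCDHGA4 lower, and the median log2 change was 0.10. PCDHGB5, the most abundant member in that line under both treatments, had 148.3, 149.4 and 131.8 CPM in CPI-0209 and 136.8, 145.3 and 147.1 CPM in DMSO, groups that overlapped (log2 change 0.04 ± 0.06, adjusted p = 0.633, edgeR). Per kilobase of exon it was at 29.5 CPM in both groups, and PCDHB8 was at 29.1 CPM in CPI-0209 and 2.89 CPM in DMSO libraries. It fell in 639V, with 0.0868, 0.145 and 0.141 CPM in CPI-0209, against 0.540, 0.539 and 0.617 CPM in DMSO, a log2 change of -2.17 ± 0.32 (adjusted p = 8.46e-05, edgeR). It also fell in HT1376, with 4.57, 4.30 and 5.08 CPM in CPI-0209, against 5.77, 6.95 and 7.50 CPM in DMSO, and it rose in SW780, with 1.03, 1.32 and 0.880 CPM in CPI-0209, against 0.549, 0.619 and 0.688 CPM in DMSO. Groups were apart in those 3 lines.

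PCDHGA1, the gamma gene nearest the beta cluster, rose in SW780, TCCSUP and VMCUB and fell in 639V. Its SW780 libraries had 2.93, 2.31 and 3.21 CPM in CPI-0209, against 1.68, 1.47 and 1.01 CPM in DMSO. Its TCCSUP libraries had 4.25, 4.29 and 4.63 CPM in CPI-0209, against 2.13, 2.59 and 3.0 CPM in DMSO. In 639V it had 1.16, 1.34 and 1.27 CPM in CPI-0209, against 1.81, 2.49 and 2.41 CPM in DMSO, a log2 change of -0.83 ± 0.17 (adjusted p = 0.00112, edgeR). The groups were apart in each. In VMCUB it had 0.866, 1.26 and 1.00 CPM in CPI-0209, against 0.571, 0.626 and 0.561 CPM in DMSO, a call lost (adjusted p of 0.0762 to 0.104) without DMSO replicate 1 or CPI-0209 replicate 2 or 3.

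PCDHGB1 rose in SW780 and TCCSUP and fell in 639V, where it had 0.226, 0.488 and 0.484 CPM in CPI-0209, against 0.799, 0.763 and 1.10 CPM in DMSO. The SW780 level was 4.63, 5.10 and 5.78 CPM in CPI-0209, against 3.58, 2.98 and 3.44 CPM in DMSO. The TCCSUP level was 8.07, 8.40 and 8.94 CPM in CPI-0209, against 5.74, 7.86 and 5.82 CPM in DMSO. All 3 pairs of groups were apart. PCDHGA6 rose in SW780, with 2.71, 3.12 and 2.35 CPM in CPI-0209, against 1.5, 1.70 and 1.90 CPM in DMSO. It fell in KU1919, with 0.510, 0.773 and 0.811 CPM in CPI-0209, against 1.38, 1.40 and 1.55 CPM in DMSO. It fell in 639V, with 0.712, 0.506 and 1.07 CPM in CPI-0209, against 1.01, 1.46 and 1.58 CPM in DMSO, where the groups overlapped. The KU1919 call was lost without any 1 DMSO library or CPI-0209 replicate 2 (adjusted p of 0.067 to 0.103), and the 639V call without DMSO replicate 2 or 3 or CPI-0209 replicate 1 or 2 (0.0711 to 0.0926).

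Whether the response differed between lines was tested for 51 members by the F test on the line by treatment terms (edgeR). It was called for 37 of them, 11 of 13 alpha, 15 of 16 beta and 11 of 22 gamma genes, where 58.7% of all tested genes were called. Leaving out a replicate of every group left 25 to 29 calls. PCDHB2 had an adjusted p of 1.64e-17 and PCDHB8 of 6.79e-16, while PCDHB1 was the beta gene without a call (0.629). A response shared by the 8 lines, tested on counts summed over replicates, was called for 1 of 46 tested members, against 7.31% higher and 4.41% lower over all genes. That member was PCDHAC2, with a log2 change of 2.33 ± 0.54 (adjusted p = 0.0332, edgeR). Its adjusted p was between 0.0549 and 0.0879 when HT1376, KU1919, SW780, T24 or TCCSUP was left out, and 0.0668 without replicate 1 of every group. Without replicate 3 there were 0 calls, and without 639V there were 3. At an unadjusted p under 0.05 edgeR counted 14 higher and 0 lower members, 12 of them beta genes, and DESeq2 called 10 higher and 0 lower. The shares of all genes at these 2 settings are not given here, so those counts have no background beside them. By the adjusted edgeR test, 0 of 16 beta genes were called in the shared fit.

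Neuronal markers, genes of the cell type where these proteins are best known, also had calls in every line. In TCCSUP 7 of 8 tested neuronal markers of 12 rose, against 25.7% over all genes, and their summed level was 509.2 to 529.0 CPM in CPI-0209 and 267.5 to 343.8 CPM in DMSO, with ELAVL4 at 0. In SW780 2 of 6 tested rose, close to the 30.8% of all genes, with sums of 54.8 to 58.8 CPM in CPI-0209 and 27.1 to 30.7 CPM in DMSO and no marker at 0. In 639V 4 of 7 tested rose, with sums of 197.4 to 223.3 CPM in CPI-0209 and 148.6 to 162.9 CPM in DMSO, beside beta and gamma genes that fell. In KU1919 6 of 8 tested rose and 1 fell, with sums of 146.9 to 163.3 CPM in CPI-0209 and 66.0 to 69.8 CPM in DMSO and STMN2 at 0. In T24 1 of 5 tested rose, with sums of 201.8 to 220.7 CPM in CPI-0209 and 214.5 to 242.8 CPM in DMSO. The other 3 lines, with few protocadherin calls, had calls too. In HT1376 3 of 6 tested rose, with sums of 61.4 to 67.2 CPM in CPI-0209 and 30.9 to 32.9 CPM in DMSO. In HT1197 4 of 6 rose, with sums of 185.8 to 189.4 CPM in CPI-0209 and 161 to 172.6 CPM in DMSO. In VMCUB 3 of 5 rose, with sums of 131.2 to 137.8 CPM in CPI-0209 and 97.7 to 107.8 CPM in DMSO. Over all genes 22.1% were called higher in 639V, 9.3% in KU1919 and 9.37% in T24. The shares were 23.7% in HT1376, 11.8% in HT1197 and 16.4% in VMCUB. TUBB3 alone averaged 207.7 CPM in CPI-0209 and 220.4 CPM in DMSO in T24, without a call. It also made up most of the sum in TCCSUP, 639V, HT1197 and VMCUB, where it was called higher. STMN2, ELAVL3 and ELAVL4 passed the filter in no line. The part of the neuronal markers in the result was not tested. The 8 epithelial markers summed to 2169 to 2254 CPM in CPI-0209 and 2434 to 2756 CPM in DMSO in TCCSUP, where 3 rose and 1 fell. Mesenchymal markers had 2 of 4 higher in that line, against 25.7% over all genes, with sums of 2145 to 2472 CPM in CPI-0209 and 1619 to 2038 CPM in DMSO. Fibroblast markers had 3 of 4 higher, with sums of 10530 to 11070 CPM in CPI-0209 and 6796 to 8159 CPM in DMSO. Leukocyte markers had 1 of 2 tested lower, with sums of 38.7 to 40.2 CPM in CPI-0209 and 43.2 to 61.2 CPM in DMSO, and endothelial markers summed to 2.85 to 4.16 CPM in CPI-0209 and 3.91 to 4.72 CPM in DMSO. Mesenchymal sums were also higher without overlap in every other line but T24, whether protocadherin calls were many or few. In 639V they were 841.8 to 901.4 CPM in CPI-0209 and 725.1 to 751.7 CPM in DMSO. In HT1376 they were 381.2 to 448.6 CPM in CPI-0209 and 217.3 to 293.8 CPM in DMSO. Fibroblast markers also had higher sums without overlap in every other line but HT1376, whether protocadherin calls were many or few. Their sums were 31.4 to 32.9 CPM in CPI-0209 and 8.59 to 10.7 CPM in DMSO in SW780, where 2 of 3 tested rose. In T24 they were 10.3 to 15.0 CPM in CPI-0209 and 4.58 to 6.17 CPM in DMSO, and 2 of 3 rose. In 639V they were 25.8 to 29.1 CPM in CPI-0209 and 12.8 to 14.2 CPM in DMSO, and 2 of 4 rose. In KU1919 they were 36.3 to 45.6 CPM in CPI-0209 and 25.4 to 27.1 CPM in DMSO. In VMCUB they were 14.9 to 16.5 CPM in CPI-0209 and 7.11 to 8.29 CPM in DMSO. In HT1197 they were 69.1 to 75.9 CPM in CPI-0209 and 60.7 to 64.6 CPM in DMSO. In HT1376 they were lower, at 202.3 to 227.2 CPM in CPI-0209 and 240.9 to 249.7 CPM in DMSO, although 2 of 3 tested rose and 1 fell. COL1A2, the gene that fell, averaged 138.0 CPM in CPI-0209 and 220.2 CPM in DMSO. COL1A1 and DCN rose there by 1.67 and 3.15 on the log2 scale. Epithelial sums in 639V were lower, at 2073 to 2371 CPM in CPI-0209 and 2804 to 3121 CPM in DMSO, with 4 of 8 genes higher and 3 lower. Leukocyte sums in 639V were 3.49 to 3.98 CPM in CPI-0209 and 9.74 to 10.9 CPM in DMSO, and the 1 gene tested fell. The part of these lists in the result was not tested either.

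The 11 protocadherins outside the clusters, which each stand outside these arrays, showed no direction common to the lines. Of them 5 of 8 tested rose and 2 fell in TCCSUP, against 25.7% and 23% over all genes. In SW780 6 of 10 rose and 1 fell, against 30.8% and 30.3%. In 639V 1 of 9 rose and 5 fell, against 22.1% and 17.1%. In VMCUB 5 of 8 rose and 0 fell, against 16.4% and 11%. In HT1376 1 of 5 rose and 2 fell, against 23.7% and 16%. With 0 lower, 2 of 4 rose in HT1197, 2 of 9 in KU1919 and 1 of 7 in T24. The shares higher over all genes there were 11.8%, 9.3% and 9.37%. PCDH19, linked to an epilepsy of girls, had 0.601, 0.444 and 0.376 CPM in CPI-0209 libraries of TCCSUP, against 0.0601, 0.0294 and 0.105 CPM in DMSO libraries. It fell in 639V (log2 change -0.36 ± 0.11, adjusted p = 0.021, edgeR) and rose in T24 (2.02 ± 0.36). PCDH7 fell in TCCSUP, with 203.2, 194.5 and 182.5 CPM in CPI-0209, against 329.6, 355.7 and 335.3 CPM in DMSO, fell also in 639V (log2 change -0.94 ± 0.12, adjusted p = 1.61e-05, edgeR), and rose in SW780, KU1919, VMCUB and HT1197.

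Genes beside the clusters mostly moved the other way in TCCSUP. Of 18 listed neighbours 15 matched a gene of the table, and in TCCSUP 1 of 14 tested rose and 9 fell, with a median log2 change of -0.19, against -0.0031 over all tested genes. Over all genes 25.7% were called higher and 23% lower in TCCSUP. In SW780 3 of 14 rose and 6 fell, with a median of -0.13, against 30.8% higher and 30.3% lower over all genes. In 639V, where more members fell than rose, 1 of 14 neighbours rose and 5 fell, against 22.1% and 17.1%. In HT1376 1 of 13 rose and 5 fell, against 23.7% and 16%. HT1197 and VMCUB each had 0 higher and 2 lower of 14, KU1919 had 1 higher and 0 lower of 13, and T24 had 0 calls. In the fit shared by lines ARAP3 rose by 0.36 on the log2 scale, while HDAC3, a histone deacetylase gene, fell by 0.19 and WDR55 fell by 0.17 (edgeR). Pseudogenes of the beta cluster were higher in TCCSUP, where PCDHB17P rose by 3.92, PCDHB18P by 1.66 and PCDHB19P by 1.62 on the log2 scale, while PCDHGB8P of the gamma cluster did not pass the test (-0.15, adjusted p = 0.725, edgeR).

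Genes for factors that shape or silence these promoters had calls in both directions in TCCSUP, SW780, 639V, HT1376 and HT1197. Of 19 genes for CTCF, cohesin and its loaders, DNA methylation and H3K9 silencing, 4 rose and 3 fell in TCCSUP, against 25.7% and 23% over all genes. In SW780 7 rose and 3 fell, against 30.8% and 30.3%, and in 639V 3 rose and 3 fell, against 22.1% and 17.1%. In HT1197 1 rose and 6 fell, against 11.8% and 7.8%, and in HT1376 2 rose and 2 fell, against 23.7% and 16%. In VMCUB 4 rose and 0 fell, against 16.4% and 11%, while KU1919 had 1 lower and T24 had 1 higher. CTCF itself rose by 0.19 on the log2 scale in TCCSUP and did not pass the test in the other lines. STAG2, a cohesin subunit, fell by 0.22 in the fit shared by lines (adjusted p = 0.016, edgeR), and DNMT3A, a DNA methyltransferase, rose in 5 lines, by 0.28 in TCCSUP and 1.2 in VMCUB. SUZ12 of PRC2 fell by 0.21 in the shared fit (adjusted p = 0.0249, edgeR), whereas EED did not pass the test there (-0.11, adjusted p = 0.116, edgeR).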

How the data were processed

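RNA sequencing libraries (TruSeq v2, paired-end HiSeq, per the labels' protocols) were made from 48 samples. The deposited values are whole-number counts per gene. Per the submitters' processing notes, the tools were STAR 2.7.3a and RSEM 1.3.1 with build hg38, and the annotation, any rounding and the use of strand are not given in the sources used here. Totals were 26481418 to 50916911 counts a library, which sets the precision of low genes. A table of gene names gave symbols for 35414 of 35535 genes, and coordinates and exon lengths from GENCODE 29. Each line was fitted on its 6 libraries with edgeR 4.0.16 (R 4.3.3, limma 3.58.1; filterByExpr, TMM, robust quasi-likelihood, 4 residual degrees of freedom), over all genes passing the filter, with Benjamini-Hochberg adjustment at 0.05. A response shared by lines was tested on counts summed over replicates (line plus treatment), and differences between lines by the F test of the line by treatment terms in all 48 libraries. SE was taken as the size of the log2 change over the root of F. CPM used TMM over all libraries. Python 3.11.15, pandas 2.3.3, numpy 2.4.6 and matplotlib 3.10.9 made the summaries and figures.

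Replicates were compared by chi-square over genes: the 48 pairs differed by more than sampling noise (chi-square per degree of freedom 2.20 to 138). On simulated data with 200 changed genes, 2-fold changes were recovered for 95% of genes in HT1197 (15389 genes fitted), 90% in HT1376 (16073), 79% in KU1919 (16024), 96% in SW780 (16675), 64% in T24 (15273), 88% in 639V (15913), 95% in TCCSUP (15918), 81% in VMCUB (15234), 98% in the shared fit (18013) and 64% in the test between lines (19590). The rate for the test between lines was for genes changed in TCCSUP. Recovery was not tested for the members by themselves, many of which rested on few reads. The members and gene lists were chosen with earlier results of these data known. Values in each library are given for the 4 members of each cluster called in the most lines and the largest called change of each line whose groups do not overlap. They are also given, in 1 line or more, for the C-type genes other than PCDHGC5. PCDHGC5 is given by its log2 changes, and EZH2 by its log2 changes and its group means in TCCSUP. Other named genes were chosen after their values were seen. Alternatives were other scalings, no filter, DESeq2 1.42.0, 1 fit of all libraries, a replicate block, and leaving out each library, replicate or line.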

Additional observations from a re-analysis of the deposited data

Results flagged for a closer look

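For 9 members the response to CPI-0209 differed between lines by the F test of the line by treatment terms (edgeR, Benjamini-Hochberg adjusted p), and each was called higher in at least 1 line and lower in another. The adjusted p was 1.64e-17 for PCDHB2, 5.13e-09 for PCDHB10, 1.92e-08 for PCDHB16 and 4.8e-05 for PCDHB13, beta genes that fell in 639V and rose in other lines. For PCDHB10 the other lines were T24 and TCCSUP, and for PCDHB16 they were SW780, T24 and TCCSUP. Several calls in single lines depended on 1 library. The fall of PCDHB16 in 639V (-0.27) was lost in 5 of 6 fits that left out 1 library, all but the one without CPI-0209 replicate 1 (adjusted p of 0.065 to 0.11). Its rise in SW780 was lost in 4, those without DMSO replicate 1 or 3 or CPI-0209 replicate 2 or 3 (0.0563 to 0.172), and in T24 in 2, those without replicate 1 of either group (0.064 to 0.0707). The fall of PCDHB10 in 639V was lost without DMSO replicate 3 (0.0542), and its rise in T24 without DMSO replicate 2 or CPI-0209 replicate 1 or 2 (0.0539 to 0.0892). Among gamma genes it was 5.72e-06 for PCDHGA1, 0.000398 for PCDHGA6, 0.00204 for PCDHGA2, 0.00205 for PCDHGB5 and 0.0192 for PCDHGB1. Each of these gamma genes rose in SW780 and fell in 639V. The 639V call of PCDHGA2 was lost without DMSO replicate 1 or 3 or CPI-0209 replicate 2 or 3 (0.0602 to 0.148). PCDHGA6 fell in KU1919 as well, and PCDHGB5 fell in HT1376 as well.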

How the results depend on the processing

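Of 91 called member results, 57 kept their call under every alternative run and 34 lost it under at least 1, and 0 changed direction. Those kept were 28 of 31 in TCCSUP, 18 of 25 in SW780, 5 of 12 in 639V, 4 of 7 in T24, 2 of 4 in HT1376 and 0 in HT1197, KU1919, VMCUB and the shared fit. Scaling by library totals alone shifted the median of all genes by up to 0.17 on the log2 scale, and moved the summed log2 ratio in SW780 to 0.85 for alpha, 0.66 for beta and 0.63 for gamma, the beta ratio in VMCUB to 0.40 and the gamma ratio in HT1197 to 0.12. With DESeq2, 0 members were higher in HT1197, 1 in 639V, 3 in VMCUB and 10 in the shared fit, and 3 were lower in KU1919. With no filter, 7 were higher and 2 lower in HT1376, and 5 higher in KU1919. With all 48 libraries in 1 fit, the members higher were 1 in HT1197, 8 in HT1376, 8 in KU1919, 13 in T24 and 1 in 639V, and those lower were 0 in HT1376, 4 in KU1919, 2 in T24, 0 in TCCSUP and 1 in VMCUB. With library totals alone, 4 were higher in the shared fit. The cause was not tested.

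Leaving out 1 library gave 0 to 3 higher in HT1197, 3 to 4 in HT1376, 0 to 9 in KU1919, 23 to 25 in SW780, 4 to 8 in T24, 1 to 2 in 639V, 29 to 32 in TCCSUP and 0 to 8 in VMCUB. It gave 1 to 3 lower in HT1376, 0 to 5 in KU1919, 5 to 11 in 639V, 1 to 2 in TCCSUP and 0 to 1 in VMCUB. Leaving out a line or a replicate of every group gave 0 to 3 higher in the shared fit. The values gave no sign that the replicate numbers pair the samples, although weak correlations cannot exclude pairing. Correlations of same-numbered libraries were -0.208 to 0.135, in no line all above 0.1. In no line did every library correlate best with the library of its own number. The replicate block gave 1 higher in HT1197, 4 in T24 and 3 in VMCUB, and 3 lower in KU1919. For the response shared by lines, the fit with the replicate block used single libraries, not counts summed over replicates, and gave 23 higher, so the 2 changes cannot be told apart. With 0.00393% to 0.0729% of counts in the members, 150 pairs of a member and a line were too low to be tested.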

Other observations

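Genes for intracellular and membrane partners of these proteins had calls in both directions. In TCCSUP 3 of 16 rose and 6 fell, against 25.7% and 23% over all genes. In SW780 4 rose and 6 fell, against 30.8% and 30.3%, and in 639V 4 rose and 4 fell, against 22.1% and 17.1%, shares close to those of all genes. WASF3, a WAVE family actin regulator, had 4.76, 4.94 and 5.35 CPM in CPI-0209 libraries of VMCUB, against 0.349, 0.541 and 0.561 CPM in DMSO libraries, a log2 change of 3.40 ± 0.17 (adjusted p = 7.98e-05, edgeR). It also rose in HT1376 (2.25 ± 0.08) and SW780 (1.70 ± 0.06) and fell in TCCSUP (-0.18 ± 0.06). CYFIP2, a subunit of the WAVE complex, had 3.99, 4.37 and 4.40 CPM in CPI-0209 libraries of TCCSUP, against 0.391, 0.588 and 0.448 CPM in DMSO libraries, a log2 change of 3.19 ± 0.18 (adjusted p = 1.29e-08, edgeR). Both pairs of groups lay apart. ADAM10, which encodes a protease that cuts these proteins, fell by 0.19 on the log2 scale in the fit shared by lines (adjusted p = 0.0291, edgeR).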
